A study of Mus musculus with 18 samples.

Results

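A set of TNF receptor superfamily genes of T cells other than Ox40 itself was followed: Tnfrsf8, Tnfrsf9, Tnfrsf18, Cd27, Tnfrsf1b, Tnfrsf1a, Tnfrsf25, Fas and Ltbr. They were taken from the deposited table by gene symbol, 9 of its 36528 entries, and all 9 passed the filter on low values that left 13075 genes for testing. The RNA came from CD4 T cells isolated with a commercial kit from the spleen of female NZB/W F1 animals, a cross of the NZB and NZW strains that develops lupus-like disease, aged 21 to 27 weeks with proteinuria of 30 to 100 mg/dL. Wells of 250000 cells were cultured for 48 h in IL-2 at 10 U/mL with 25 µg/mL of anti-Ox40 (IgG1) or of a control IgG1. Each antibody was combined with anti-CD3/CD28 beads, which stimulate the T cell receptor and CD28, at 0, 0.1 or 1 bead per cell, called no, low and high beads here. That gives 6 groups of 3 libraries, 18 in all, and every group, the controls included, received IL-2 and an antibody. The labels do not say whether the 3 libraries of a group came from separate mice or cultures, so p-values speak only of the spread among the libraries at hand, which may be technical.

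Receptors of this superfamily bind trimeric TNF-family ligands. Those without a death domain recruit TRAF adaptors and can deliver costimulatory signals to T cells. They include Tnfrsf8 (CD30), Tnfrsf9 (4-1BB), Tnfrsf18 (GITR), Cd27 and Tnfrsf1b (TNFR2), as well as Ox40, encoded by Tnfrsf4. Tnfrsf1a (TNFR1), Tnfrsf25 (DR3) and Fas carry a death domain in the cytoplasmic part. Ltbr, the lymphotoxin beta receptor, is known mainly from stromal and myeloid cells.

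All but Fas of the 9 genes lie on chromosomes 4 and 6, here placed on GRCm38.p6 by RefSeq. Tnfrsf1b (chr4:145212368-145246870, minus strand) and Tnfrsf8 (chr4:145267132-145315164, minus strand) are 20261 bases apart with 0 protein-coding genes between them. Tnfrsf9 (chr4:150920155-150946104), Tnfrsf25 (chr4:152115528-152120119) and Tnfrsf18 (chr4:156026322-156028894) follow on the plus strand of chromosome 4, and Tnfrsf18 is 9708 bases from Tnfrsf4. Cd27 (chr6:125232620-125237136, minus strand), Ltbr (chr6:125306571-125313885, minus strand) and Tnfrsf1a (chr6:125349723-125362483, plus strand) lie together on chromosome 6. Fas is on chromosome 19 (chr19:34290647-34327775, plus strand).

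The neighbours Tnfrsf8 and Tnfrsf1b had the widest and the narrowest span of group means among the 9 (6.27 and 0.41 on the log2 scale), and Tnfrsf9 was called higher only at the high bead dose, so the 250 bases before their RefSeq starts are shown, 5′ to 3′ on the gene's strand. Capitals mark letters that match a searched motif: AP-1 as TGANTCA, NFAT as GGAAAA or the longer kappaB motif, each on both strands and with no overlap between the matches shown. The windows are chr4:145315165-145315414 (minus strand) for Tnfrsf8, chr4:145246871-145247120 (minus strand) for Tnfrsf1b and chr4:150919905-150920154 (plus strand) for the outermost start of Tnfrsf9.
Tnfrsf8: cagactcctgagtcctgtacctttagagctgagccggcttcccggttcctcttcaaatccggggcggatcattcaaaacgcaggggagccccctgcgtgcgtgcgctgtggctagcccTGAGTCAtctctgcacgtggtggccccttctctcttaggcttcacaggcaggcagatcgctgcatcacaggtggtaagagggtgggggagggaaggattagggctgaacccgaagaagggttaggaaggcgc
Tnfrsf1b: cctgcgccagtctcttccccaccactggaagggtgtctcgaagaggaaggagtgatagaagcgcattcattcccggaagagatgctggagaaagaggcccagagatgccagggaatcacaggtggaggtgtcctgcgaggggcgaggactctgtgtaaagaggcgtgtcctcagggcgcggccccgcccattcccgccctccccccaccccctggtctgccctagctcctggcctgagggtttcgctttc
Tnfrsf9: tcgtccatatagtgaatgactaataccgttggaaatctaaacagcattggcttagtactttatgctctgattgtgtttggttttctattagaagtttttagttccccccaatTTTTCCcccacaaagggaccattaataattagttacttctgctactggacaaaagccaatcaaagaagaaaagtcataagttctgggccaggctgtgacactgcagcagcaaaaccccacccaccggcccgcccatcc
The Tnfrsf8 window held 1 match, an AP-1 match at positions -132 to -126 from the start. The Tnfrsf1b window held none of these letters. The Tnfrsf9 window shown held an NFAT match on the other strand at positions -138 to -133. Another Tnfrsf9 window, before an inner start and not shown, held an AP-1 match at positions -15 to -9. Of 32851 windows of the same length in RefSeq, 6.75% held the AP-1 letters, 20.43% the NFAT letters and 1.21% the kappaB letters. Over the 11 windows of the 9 genes there were 3 AP-1, 4 NFAT and 0 kappaB matches. These matches are descriptions of letters, and no binding was measured.

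The values are nRPKM, the authors' normalized form of RPKM. RPKM stands for reads scaled to gene length and to the size of the library, and the scaling behind the normalized form is not given. The size of 1 read, recovered from genes of 1 to 5 reads whose values were all whole reads within 0.1 read, gave 26.4 to 46.0 reads per nRPKM and kilobase over the libraries. Of 8 CD4 T cell markers 7 were in the table, and their summed nRPKM lay between 1126 and 1613 over all libraries, whereas of the cytotoxic T cell markers Cd8a averaged at most 0.186 and Cd8b1 4.42 to 5.93 in any group. Myeloid markers, 14 of 15 in the table, summed to 380 to 416 in unstimulated wells with control antibody, to 123 to 136 with low and to 44.4 to 54.1 with high beads. All 12 that were tested fell from no to high beads with control antibody, where 82.3% of all genes were called (38.9% lower). B cell markers were highest in replicate 3 of every group (for example 57.2 against 7.12 and 8.92 at low beads with control antibody). Genes of lung epithelium, 5 in the list, were near 0 without beads (at most 0.107 summed). At low beads they summed to 38.4 to 215 with anti-Ox40 and 0.014 to 25.8 with control antibody. All 5 were called higher with anti-Ox40 there, where 9.59% of all genes were called. At high beads they summed to 28.5 to 52.6 with anti-Ox40 and 30.4 to 119 with control antibody. There 0 of 5 were called between the antibodies, against 26.0% of all genes. The part of other cells in the values below was not tested, and in bulk RNA fewer cells of a type and less RNA per cell cannot be told apart.

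Bead stimulation split the 9 receptors. Tnfrsf8, Tnfrsf18 and Tnfrsf9, known as receptors of activated T cells, rose from no to high beads under control antibody. Cd27 and the 3 death-domain receptors Tnfrsf25, Fas and Tnfrsf1a fell. Tnfrsf1b and Ltbr were not called in that comparison. The 7 of 9 called stand against 82.3% of all genes tested (43.4% higher and 38.9% lower), so the number called is no result about these genes. The median of the 9 log2 changes was -0.01 beside 0.04 over all genes. All tests used limma on log2(nRPKM + 1) with Benjamini-Hochberg adjustment over all genes tested, and differences called log2 changes are on that scale, which understates the change of low genes.

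**Figure D1:**
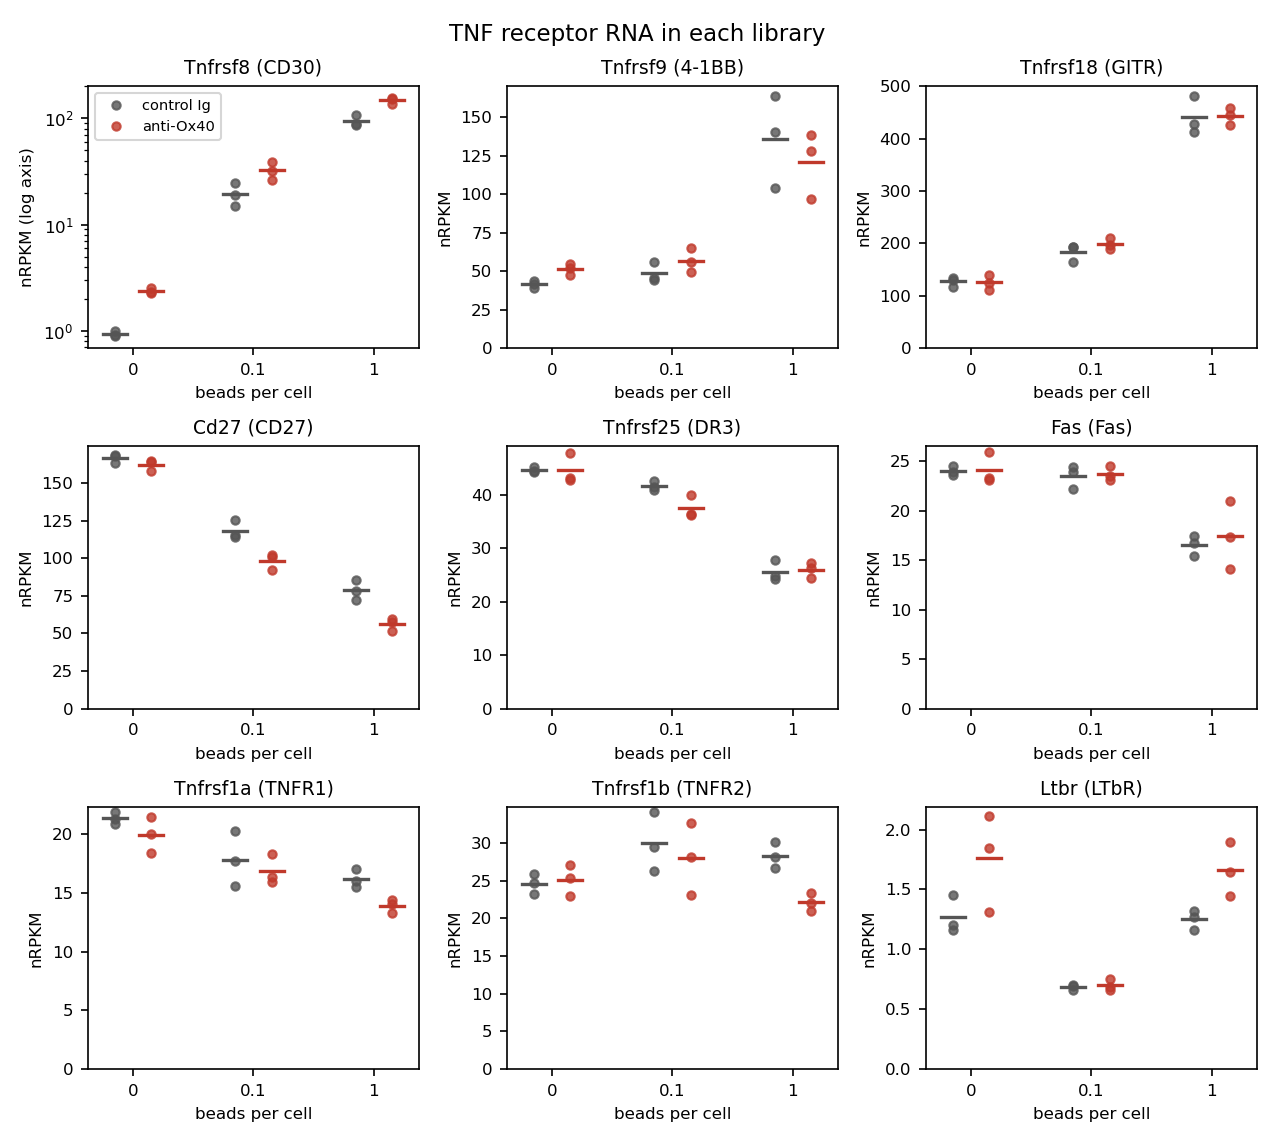
nRPKM of the 9 receptors in each of the 18 libraries, 1 panel per receptor, by beads per cell (horizontal axis) and antibody (gray control, red anti-Ox40); points are libraries, short lines are group means, and the axis of Tnfrsf8 is logarithmic. Tnfrsf8 climbs from 0.930 to 148, Cd27 descends from 167 to 56.3, and Tnfrsf1b stays between 21.0 and 34.1 in all libraries.

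Tnfrsf8 encodes CD30, a costimulatory receptor that appears on activated T cells. Its nRPKM under control antibody was 0.998, 0.903 and 0.889 without beads, 24.4, 19.0 and 15.1 with low beads, and 107, 86.3 and 88.7 with high beads. With anti-Ox40 it was 2.25, 2.29 and 2.54, then 39.1, 32.0 and 26.1, then 151, 138 and 156. The 6 groups did not overlap anywhere: at each bead dose every anti-Ox40 library was above every control library, and every bead dose lay above the one before. Between the antibodies 9.22%, 25.9% and 43.3% of all genes did not overlap at no, low and high beads. The mean rose 101-fold from no to high beads under control antibody (log2 change 5.62 ± 0.14 SE, adjusted p = 6.86e-15), the 5th largest change in size of the 13075 genes. Under anti-Ox40 it rose 62.7-fold (log2 change 5.47, adjusted p = 8.49e-15), the 8th largest. Under each antibody 60.2% of the log2 change was present at low beads. The 1 added to nRPKM before taking logs weighs on this share, since Tnfrsf8 averaged 0.930 nRPKM without beads under control antibody.

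Tnfrsf18 encodes GITR, a costimulatory receptor also abundant on regulatory T cells. Its nRPKM under control antibody was 134, 117 and 131 without beads, 193, 193 and 165 with low beads and 482, 412 and 429 with high beads. The anti-Ox40 libraries gave 125, 111 and 139, then 211, 197 and 189, then 459, 426 and 445. Bead doses were apart from each other, whereas the antibody groups overlapped at every dose. The log2 change was 0.52 from no to low beads (adjusted p = 7.1e-05) and 1.26 from low to high (adjusted p = 4.35e-09) under control antibody. Under anti-Ox40 it was 0.67 and 1.15 (adjusted p = 4.24e-06 and 1.03e-08). At high beads Tnfrsf18 gave 52.6% of the summed nRPKM of the 9 receptors with control antibody and 52.2% with anti-Ox40, up from 28.1% and 27.4% without beads.

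Tnfrsf9 encodes 4-1BB, likewise an activation-induced costimulatory receptor. It was 43.8, 38.9 and 41.8 nRPKM without beads, 56.0, 45.5 and 44.2 with low beads and 164, 104 and 140 with high beads under control antibody. With anti-Ox40 it was 52.3, 47.2 and 54.9, then 65.3, 49.8 and 55.7, then 139, 96.7 and 128. The high-bead libraries of each antibody stood above all others, while the middle groups of the order (anti-Ox40 low beads, anti-Ox40 no beads and control low beads) overlapped. Only the step to high beads was called: 1.45 under control antibody (adjusted p = 5.69e-07) and 1.07 under anti-Ox40 (adjusted p = 1.54e-05), against 0.22 and 0.14 from no to low beads (adjusted p = 0.241 and 0.447). Low beads thus held 12.9% and 11.3% of the log2 change from no to high beads, less than the 60.2% of Tnfrsf8 and the 29.3% and 36.7% of Tnfrsf18; these shares were not tested against each other.

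Regulatory T cell markers moved with the beads too. Of the 7 in the list, all tested, 2 rose (Ikzf4 and Ctla4) and 4 fell (Foxp3, Ikzf2, Nrp1 and Lrrc32) from no to high beads under control antibody. Of all genes 82.3% were called there (43.4% higher and 38.9% lower), so the number called is no result about these markers. Their summed nRPKM was 259 to 321 without beads and 196 to 253 at high beads. Foxp3, the defining transcription factor, fell from 93.3 ± 8.70 to 34.4 ± 8.96 nRPKM (SD, n = 3; log2 change -1.44, adjusted p = 4.29e-06). Tnfrsf18 and Tnfrsf9 rose over the same step; the part of regulatory T cells in either was not tested.

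Cd27, the costimulatory receptor for Cd70 on resting T cells, showed the opposite course. Under control antibody its nRPKM was 169, 163 and 168 without beads, 116, 114 and 125 with low beads, and 72.3, 78.2 and 85.6 with high beads. Under anti-Ox40 it was 158, 164 and 165, then 101, 92.2 and 102, then 51.9, 57.3 and 59.8. The 2 groups without beads overlapped, and every later group lay below the one before it in the order control low, anti-Ox40 low, control high, anti-Ox40 high. From no to high beads the level fell to 0.472 of its start under control antibody (log2 change -1.08, adjusted p = 1.31e-10) and to 0.347 under anti-Ox40 (log2 change -1.51, adjusted p = 1.64e-12). Of the summed nRPKM of the 9 receptors, Cd27 made up 36.9% without beads and 9.46% at high beads with control antibody, and 35.6% and 6.64% with anti-Ox40.

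**Figure D2:**
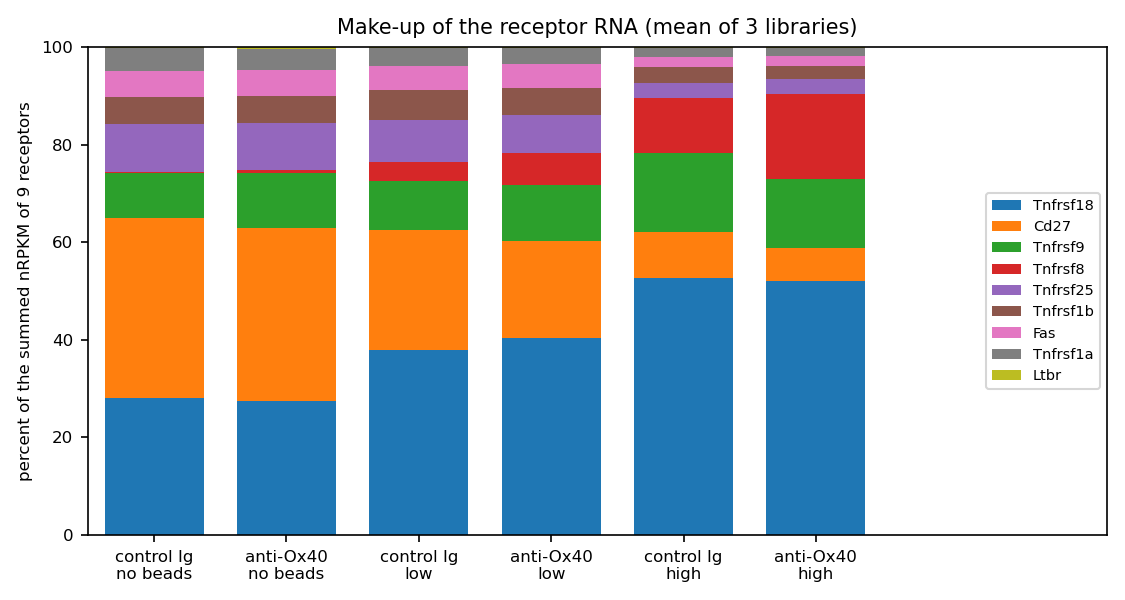
Stacked bars of the mean share (percent, vertical axis) of the summed nRPKM of the 9 receptors held by each receptor in the 6 groups (3 libraries each). Between no beads with control antibody and high beads with anti-Ox40, Cd27 goes from 36.9% to 6.64% and Tnfrsf18 from 28.1% to 52.2%. Tnfrsf8 goes from 0.206% to 17.4% and Tnfrsf9 from 9.17% to 14.2%.

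The summed nRPKM of the 9 receptors was 452 ± 16.2 without beads, 484 ± 20.7 with low and 838 ± 71.5 with high beads under control antibody (SD, n = 3). With anti-Ox40 it was 457 ± 17.5, 494 ± 27.4 and 850 ± 41.8. Within a dose the antibodies differed by less than the SD of either group.

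The 3 death-domain receptors fell by smaller amounts. Tnfrsf25, the receptor for Tnfsf15, was 44.6 ± 0.443 nRPKM without beads, 41.6 ± 0.863 at low and 25.6 ± 1.85 at high beads under control antibody (SD, n = 3). Under anti-Ox40 it was 44.6 ± 2.86, 37.5 ± 2.05 and 26.0 ± 1.52. High-bead libraries of both antibodies lay below all others, with no overlap. The log2 change from no to high beads was -0.78 (adjusted p = 2.35e-09) and -0.75 (adjusted p = 3.06e-09).

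Fas, a death receptor that limits activated lymphocytes, was called only at the high dose. The means were 24.0 ± 0.444, 23.5 ± 1.17 and 16.5 ± 1.06 nRPKM from no to high beads with control antibody, and 24.1 ± 1.57, 23.7 ± 0.738 and 17.5 ± 3.40 with anti-Ox40 (SD, n = 3). The 4 groups with no or low beads overlapped one another and all lay above the 2 high-bead groups. The step from low to high beads gave log2 changes of -0.48 (adjusted p = 0.00025) and -0.43 (adjusted p = 0.000663), and that from no to low beads -0.03 and -0.02 (adjusted p = 0.814 and 0.85). Like Tnfrsf9, Fas was called at the high dose only, for both antibodies. A nuclear RNA score, the mean log2(nRPKM + 1) of Malat1 and Neat1, itself fell with the beads (7.83 to 8.48 without and 5.84 to 6.59 at high beads). With this score as a covariate the calls of Fas were lost while the changes stayed near their size. From no to high beads they were -0.48 under control antibody and -0.42 under anti-Ox40 (adjusted p = 0.0817 and 0.274), against -0.51 and -0.46 without the covariate.

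Tnfrsf1a and Tnfrsf1b are the receptors for TNF. From no to high beads Tnfrsf1a fell and Tnfrsf1b was not called, and the 2 genes were not tested against each other. Tnfrsf1a was 21.3 ± 0.518, 17.8 ± 2.36 and 16.1 ± 0.773 nRPKM from no to high beads with control antibody, and 20.0 ± 1.50, 16.9 ± 1.30 and 13.9 ± 0.528 with anti-Ox40 (SD, n = 3). Ranked by mean (control no beads, anti-Ox40 no beads, control low, anti-Ox40 low, control high, anti-Ox40 high), neighbouring groups overlapped, apart from the lowest; within each antibody the groups with no and low beads did not overlap. Over the whole range of beads it fell by 0.38 (adjusted p = 0.000273) and by 0.49 (adjusted p = 2.04e-05) on the log2 scale. The smaller falls from no to low beads, -0.25 and -0.23 (adjusted p = 0.0101 and 0.0146), lost their calls without replicate 1 of control low beads (adjusted p = 0.064), and without replicate 3 of anti-Ox40 no beads or replicate 1 of anti-Ox40 low beads (adjusted p = 0.0701 and 0.062). From low to high beads under control antibody Tnfrsf1a was not called (-0.13, adjusted p = 0.148) but was without replicate 1 of control low beads (-0.22, adjusted p = 0.0158).

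Tnfrsf1b, which lies beside Tnfrsf8, kept within 21.0 and 34.1 nRPKM in all 18 libraries. The group means were 24.6 ± 1.34, 30.0 ± 3.97 and 28.3 ± 1.74 with control antibody and 25.2 ± 2.03, 28.0 ± 4.79 and 22.2 ± 1.19 with anti-Ox40 (SD, n = 3), and ranked by mean (control low, control high, anti-Ox40 low, anti-Ox40 no beads, control no beads, anti-Ox40 high) every group overlapped its neighbour. Control libraries with no and low beads, which are not neighbours in that ranking, did not overlap. From no to high beads the log2 change was 0.20 under control antibody (adjusted p = 0.0967) and -0.17 under anti-Ox40 (adjusted p = 0.139). With every library rescaled to the same sum, which moved the median of all genes from 0.04 to -0.24 for that step under control antibody, these became -0.09 and -0.50 (adjusted p = 0.488 and 0.00105). The rise at low beads under control antibody, 0.27 (adjusted p = 0.0377), was lost without any 1 of 4 libraries: replicates 2 and 3 without beads (adjusted p = 0.119 and 0.0715) and replicates 1 and 3 at low beads (0.183 and 0.0654). Tnfrsf1b from low to high beads under anti-Ox40 was -0.31 (adjusted p = 0.0158), and 0.104 and 0.0561 were the adjusted p-values without replicate 1 of low or replicate 2 of high beads. This call was also lost with the nuclear RNA score as covariate. Leaving out replicate 2 of anti-Ox40 low beads brought 2 further calls, from no to low beads under anti-Ox40 (0.26, adjusted p = 0.0279) and from no to high beads under control antibody (0.20, adjusted p = 0.0494).

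Ltbr was near the filter, at 0.658 to 2.12 nRPKM. It was 1.20, 1.45 and 1.16 without beads, 0.697, 0.700 and 0.660 with low beads and 1.16, 1.27 and 1.32 with high beads with control antibody. With anti-Ox40 it was 1.31, 1.85 and 2.12, then 0.686, 0.658 and 0.756, then 1.65, 1.44 and 1.90. Low-bead libraries were below all others for both antibodies, and Ltbr alone among the 9 fell and then rose by called amounts under control antibody: -0.43 from no to low beads (adjusted p = 0.00118) and 0.42 from low to high (adjusted p = 0.00115). The same steps under anti-Ox40 were -0.69 and 0.64 (adjusted p = 1.05e-05 and 2.1e-05). Of 12 myeloid markers tested, 11 fell from no to low beads under control antibody, where 62.3% of all genes were called (29.8% lower). From low to high beads 9 fell and 3 were not called, where 72.5% of all genes were called (32.5% lower). Among these 12 markers Lyz2 went from 213 ± 16.3 to 14.3 ± 3.22 and 3.97 ± 2.56 nRPKM (SD, n = 3). Of 9 stromal markers 8 did not pass the filter on low values, and Pecam1 did. The part of myeloid or stromal cells in Ltbr was not tested. With the nuclear RNA score as covariate the call of the rise of Ltbr under control antibody was lost (0.43, adjusted p = 0.13).

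**Figure D3:**
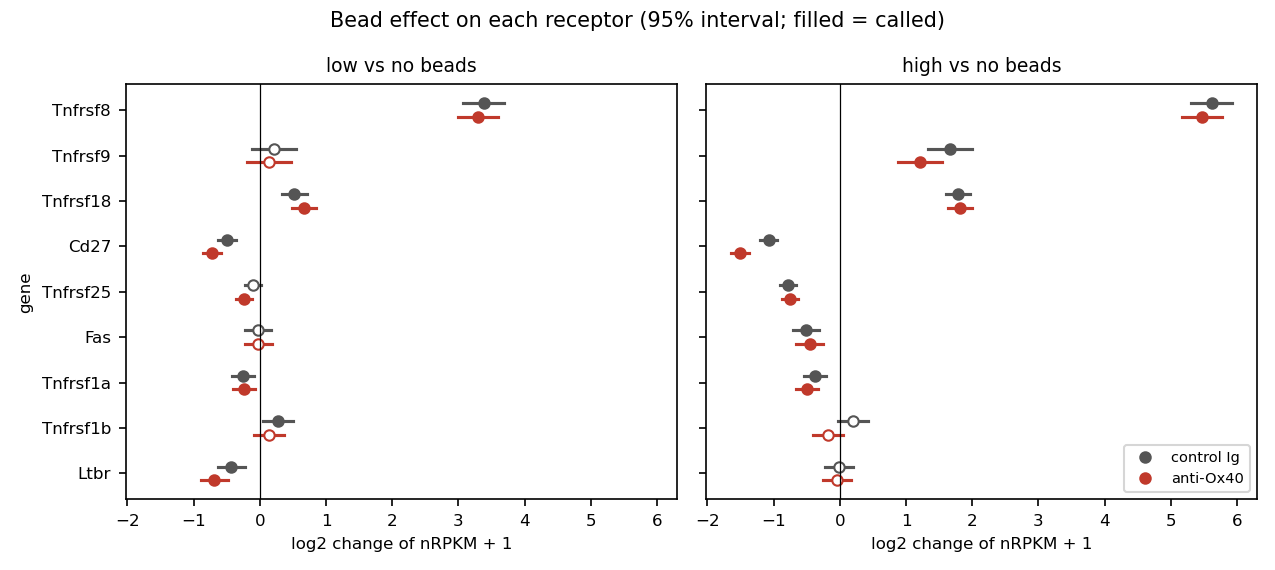
Log2 change of each receptor at low beads (left) and high beads (right) against no beads, on the log2(nRPKM + 1) scale, with 95% intervals from limma; gray is control antibody, red anti-Ox40, and filled points were called. Tnfrsf8 is far to the right in both panels (3.38 and 5.62 with control antibody), Tnfrsf9 and Fas are called on the right only, and Ltbr on the left only (-0.43 with control antibody).

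By step, 3 of the 9 rose and 3 fell from no to low beads under control antibody, where 62.3% of all genes were called, 32.6% higher and 29.8% lower. From low to high beads 4 rose and 3 fell, where 72.5% of genes were called, 40.0% higher and 32.5% lower. Under anti-Ox40, 2 rose and 4 fell from no to low beads (background 70.8%, with 37.1% higher and 33.7% lower), and 4 rose and 5 fell from low to high (71.5%, with 40.3% and 31.2%). Over the whole range of beads with anti-Ox40 3 rose and 4 fell (84.5%, with 45.2% and 39.3%). With so many genes called, these counts say little about the receptors as a set. Comparisons that share a bead dose share its libraries.

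Tnfrsf8 was higher with anti-Ox40 at every bead dose. Cd27 was lower with it at both bead doses, and Tnfrsf1b was called lower at high beads. Without beads 1 of 9 was called (background 0.138% of genes). The low dose gave 2 of 9 (background 9.59%). The high dose gave 3 of 9 (26.0%), near the share of all genes. Counts this small say little about the receptors as a set. Leaving out the library richest in B cell markers from each group, 6 in all, gave counts of 0, 0 and 2, of which the last were Tnfrsf8 and Cd27.

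Without beads, Tnfrsf8 rose from 0.930 ± 0.0593 to 2.36 ± 0.158 nRPKM with anti-Ox40 (SD, n = 3), a ratio of 2.54. This log2 change, 0.80 ± 0.14 SE (adjusted p = 0.0412), ended as a call when any 1 of the 6 libraries compared was left out (adjusted p = 0.0627 to 0.203), although it stayed between 0.76 and 0.83. The call was also lost without replicate 2 of anti-Ox40 low beads (adjusted p = 0.0612) or any 1 of the 6 high-bead libraries (0.0502 to 0.0731). The pseudocount weighs on so low a gene: with 0.1 in place of 1 the change was 1.26 (adjusted p = 0.000809). The other 8 receptors gave no call. Tnfrsf9 did not overlap between the antibodies (log2 change 0.30, 95% interval -0.03 to 0.63, adjusted p = 1.0), as 9.22% of all genes did not. Ltbr was 0.27 higher (adjusted p = 0.785).

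At low beads Tnfrsf8 was 1.67-fold higher with anti-Ox40 (log2 change 0.71 ± 0.14 SE, adjusted p = 0.0116) and at high beads 1.58-fold (0.66 ± 0.14 SE, adjusted p = 0.00363). Leaving out replicate 3 of control low beads ended the first of these calls (0.55, adjusted p = 0.0676). The effect on Tnfrsf8 was not called as different between doses. High minus no beads gave a log2 difference of -0.15 (95% interval -0.58 to 0.29, adjusted p = 0.708), or -0.60 with a pseudocount of 0.1 (adjusted p = 0.0849). High minus low beads gave -0.06 (95% interval -0.49 to 0.37).

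Cd27 went the other way. With anti-Ox40 it stood at 0.832 of the control level at low beads (log2 change -0.26 ± 0.06 SE, adjusted p = 0.0233) and at 0.716 of it at high beads (-0.47 ± 0.06 SE, adjusted p = 0.000123). The antibody groups did not overlap at either dose, as was so for 25.9% of all genes at low and 43.3% at high beads. The call at low beads was lost without replicate 1 or 3 of the control group (adjusted p = 0.0689 and 0.113) or replicate 2 of the anti-Ox40 group (0.0891). Without beads the change was -0.04 (95% interval -0.17 to 0.10). The antibody effect on Cd27 at high beads minus that without beads was -0.44 ± 0.09 SE (adjusted p = 0.00908), the single call among the 9 for which the background was 11.1% of genes. The T cell markers were lower with anti-Ox40 at high beads as well: their summed nRPKM was 1126 to 1212 against 1372 to 1470 with control antibody. Of the 7 tested 5 were called lower, where 26.0% of all genes were called in either direction. Cd3e, a subunit of the T cell receptor complex, was 171 ± 9.91 against 218 ± 12.3 nRPKM (SD, n = 3). The part of such a shift in Cd27 was not tested.

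**Figure D4:**
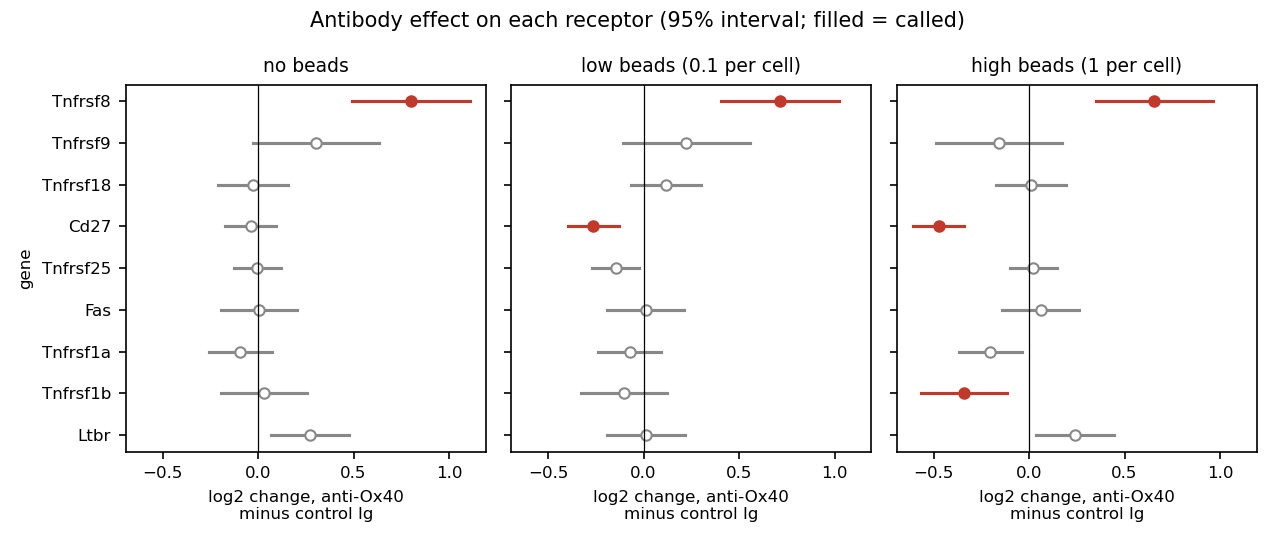
Log2 difference of anti-Ox40 from control antibody for each receptor at no, low and high beads, on the log2(nRPKM + 1) scale, with 95% intervals from limma and filled points where called. Tnfrsf8 lies at 0.80, 0.71 and 0.66, while Cd27 moves from -0.04 to -0.26 and -0.47.

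Tnfrsf1b was 28.3 ± 1.74 nRPKM with control antibody and 22.2 ± 1.19 with anti-Ox40 at high beads (SD, n = 3). Its libraries were 30.1, 26.7 and 28.2 against 23.4, 21.0 and 22.1, with no overlap, at a ratio of 0.782 (log2 change -0.34 ± 0.11 SE, adjusted p = 0.0276). Between the antibodies 43.3% of all genes did not overlap at high beads. The call was lost without replicate 1 or 3 of the control group (adjusted p = 0.0854 and 0.068) or replicate 2 or 3 of the anti-Ox40 group (0.0869 and 0.0602). It was also lost with no filter on low values and with the nuclear RNA score as covariate. The difference of this effect from that without beads, -0.37 (95% interval -0.69 to -0.05), was not called (adjusted p = 0.126), but was when only the groups compared were fitted (adjusted p = 0.0286). That from low beads, -0.24, was not called (adjusted p = 0.391). Tnfrsf1a, the other TNF receptor, was also lower at high beads without overlap, but the change of -0.20 was not called (adjusted p = 0.0672). It was called without replicate 1 or replicate 2 of control low beads (adjusted p = 0.0321 and 0.0261). Other fits that called it were that of only the groups compared and that with every library rescaled to the same sum. So did those with the nuclear RNA score as covariate and with replicate number as a block.

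The remaining receptors gave no call at low or high beads. For Tnfrsf18 the log2 change at high beads was 0.01, with a 95% interval of -0.17 to 0.19, so a change beyond about that size in either direction lies outside the interval. For Tnfrsf25 it was 0.02 (-0.10 to 0.14) and for Fas 0.06 (-0.14 to 0.26). Tnfrsf9 changed sign from 0.22 at low to -0.16 at high beads, neither called (adjusted p = 0.362 and 0.504). Ltbr was 0.24 higher at high beads with no overlap (adjusted p = 0.0801), and was called without replicate 1 of anti-Ox40 no beads (adjusted p = 0.033). At low beads Tnfrsf25 was lower in all 3 anti-Ox40 libraries (36.4, 39.9 and 36.3 against 42.6, 41.4 and 40.9), and the change of -0.15 was not called (adjusted p = 0.108). Of all genes, 25.9% did not overlap between the antibodies at low beads and 43.3% at high beads.

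Tests of whether the antibody effect differed between low and no beads called 0 of 9 by limma (1 at an unadjusted p under 0.05; background 0.268%), and between high and low beads 0 of 9 (1 at an unadjusted p under 0.05; background 3.17%). No other tool was run.

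The genes whose course over the 18 libraries was most like that of a receptor were sought for those 4 receptors whose group means spanned at least 1 on the log2 scale. Likeness was the root mean square difference of centred log2 values among 11203 genes. For Tnfrsf18 the nearest was Tnfrsf4, its neighbour on chromosome 4 and the target of the antibody, at 0.10, followed by Ppme1 (0.10) and Sub1 (0.11). Tnfrsf4 averaged 30.4, 42.1 and 114 nRPKM from no to high beads with control antibody and 31.5, 47.7 and 120 with anti-Ox40, with antibody groups that overlapped at each dose. For Tnfrsf9 the nearest were Wdr54 (0.18), Pkp2 (0.19) and Smyd5 (0.19), with Tnfrsf4 36th at 0.24. From no to high beads with control antibody Wdr54 averaged 0.316 to 2.91 nRPKM and Pkp2 0.198 to 1.85, against 41.5 to 136 for Tnfrsf9. The pseudocount of 1 shrinks the log2 changes of such low genes, so their likeness to Tnfrsf9 holds on that scale only. Smyd5 averaged 11.7 to 34.0 nRPKM over the same step.

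For Cd27 the nearest were Il16 (0.07), Ube2h (0.08) and Jakmip1 (0.09). Tnfrsf8 had the loosest match of the 4: Tpi1, a glycolytic enzyme, at 0.36, then Scd2, a fatty acid desaturase, at 0.42, and Irf4, a transcription factor induced by T cell receptor signals, at 0.43. Irf4 averaged 3.74, 21.8 and 173 nRPKM with control antibody and 4.37, 35.0 and 270 with anti-Ox40.

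Of 10 ligands of the family, 7 were tested; Cd70, Tnfsf15 and Tnfsf18, the ligands of Cd27, Tnfrsf25 and Tnfrsf18, did not pass the filter on low values. From no to high beads with control antibody 3 rose and 3 fell, with a median of -0.03, where 82.3% of all genes were called and their median was 0.04. Ltb, which joins Lta in the ligand of Ltbr, fell from 614 ± 22.2 to 244 ± 13.3 nRPKM (SD, n = 3; log2 change -1.33, adjusted p = 4.47e-12), and Fasl, the ligand of Fas, fell by 1.49 (adjusted p = 6.78e-09). Lta rose by 1.01 (adjusted p = 5.23e-06), Tnfsf9, the ligand of Tnfrsf9, by 0.71 (adjusted p = 0.000298) and Tnfsf8, the ligand of Tnfrsf8, by 0.55 (adjusted p = 0.00195). Tnf, the ligand of Tnfrsf1a and Tnfrsf1b, was the other that fell (-0.22, adjusted p = 0.000714).

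With anti-Ox40, 0 of 7 ligands were called without beads by limma (2 at an unadjusted p under 0.05), 2 rose at low beads and 3 at high beads, and none fell; of all genes 9.59% and 26.0% were called at these doses. Lta was 74.1 ± 0.947 with control antibody and 111 ± 7.73 nRPKM with anti-Ox40 at low beads (log2 change 0.57, adjusted p = 0.0257), and 63.8 ± 11.2 against 137 ± 30.2 at high beads (1.08, adjusted p = 0.000101; SD, n = 3). Ltb rose at low beads (0.25, adjusted p = 0.022). Tnfsf14 and Tnf rose at high beads (0.46 and 0.24, adjusted p = 0.00773 and 0.00246). The effect on Lta at high beads exceeded that without beads by 0.78 (adjusted p = 0.0227).

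Of 18 adaptors and regulators downstream of these receptors, all were tested. From no to high beads with control antibody 6 rose and 9 fell, with a median of -0.11, again where 82.3% of all genes were called. Traf1 fell from 108 ± 7.14 to 47.2 ± 2.91 nRPKM (SD, n = 3; log2 change -1.18, adjusted p = 4.17e-10) and Traf5 by 1.41 (adjusted p = 2.41e-10), while Traf6 rose by 0.71 (adjusted p = 6.27e-08). With anti-Ox40, limma called 0 of 18 without beads (0 at an unadjusted p under 0.05) and 0 of 18 at low beads (4 at an unadjusted p under 0.05). At high beads 6 rose and 2 fell, with a median of 0.10, where 26.0% of all genes were called and their median was 0.00. Birc3, a ubiquitin ligase bound by TRAFs, rose by 0.45 (adjusted p = 0.000123), Traf4 by 0.42 (adjusted p = 0.000816) and Cflar, an inhibitor of caspase-8 activation, by 0.41 (adjusted p = 0.000198). Traf5 fell by 0.33 (adjusted p = 0.0109).

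Of 19 other receptors of the family, 12 were tested. From no to high beads with control antibody 5 rose and 5 fell (82.3% of all genes were called), among them Tnfrsf10b, a TRAIL receptor (1.01, adjusted p = 9.18e-09), and Tnfrsf26 (-1.41, adjusted p = 1.66e-12). With anti-Ox40 at high beads, where 26.0% of all genes were called, 2 rose, Tnfrsf10b (0.58, adjusted p = 0.000201) and Tnfrsf21 (0.39, adjusted p = 0.0011), and 3 fell, Tnfrsf26 (-0.41, adjusted p = 0.000168), Tnfrsf23 (-0.38, adjusted p = 0.00185) and Tnfrsf14 (-0.33, adjusted p = 0.0014).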

How the data were processed

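RNA-seq libraries took 100 to 500 ng of input RNA and 10 PCR cycles, per the labels' protocols. The authors deposited 1 table of normalized RPKM (nRPKM) for all 18 libraries; per the submitters' processing notes, GSNAP and the GRCm38 build were used. For the annotation, the counting and the scaling behind nRPKM, the sources used here give nothing. No library pair was identical (0 pairs). The table holds 6 entries with no symbol, 27 whose symbol had become a date and 6 that share a symbol. Because the values are not counts, genes with nRPKM of at least 1 in at least 3 libraries (13075) were tested with limma 3.58.1 in R 4.3.3 on log2(nRPKM + 1): 6 group means, a variance trend with the mean, 12 residual df, two-sided tests, Benjamini-Hochberg adjustment over all genes tested, and a call at adjusted p under 0.05. The fit was tested on simulated data. Depth limits Ltbr, and Tnfrsf8 without beads, most. Receptors were named by symbol. Like-pattern genes were the 3 nearest for receptors with a span of at least 1. The receptors and gene lists were chosen with earlier results of these data known, so no p was adjusted over them alone. Alternatives changed the pseudocount, filter, scaling, trend, groups fitted, covariates and libraries. Labels give no batch, and replicate numbers follow accession order.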

Additional observations from a re-analysis of the deposited data

Results flagged for a closer look

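Cd27 was the 1 receptor of the 9 whose response to anti-Ox40 differed between bead doses by a test of the difference itself. The antibody effect at high beads (-0.47) minus that without beads (-0.04) was -0.4355 on the log2 scale (adjusted p = 0.00908 by limma), and all 3 anti-Ox40 libraries were below all 3 control libraries at high beads, whereas they overlapped without beads. The test called 11.1% of all genes, so 1 of 9 is the background share, and 43.3% of genes did not overlap between the antibodies at high beads. Of the 7 T cell markers tested it called 3 lower, Cd3d (-0.33), Cd3e (-0.27) and Cd3g (-0.40), and of 12 other receptors of the family 2 higher and 3 lower. Leaving out 1 library at a time gave -0.49 to -0.37 (adjusted p = 0.00329 to 0.0284). When the library richest in B cell markers was left out of each group, 2 per group remained, and the difference was -0.41 (adjusted p = 0.1). Single libraries were not screened as outliers, since the groups hold 3 libraries each.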

How the results depend on the processing

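Of 108 receptor results, 49 were called and 31 of these kept the call under every alternative. Of 3132 values recomputed, 84 changed sign; 0 of these were called in either fit and the largest was 0.111 in size. The count of receptors called for anti-Ox40 without beads, 1, became 0 with no filter, with no trend and without the 6 libraries richest in B cell markers of their group (an alternative chosen after seeing the data, which leaves 2 libraries per group), and was 0 to 1 when 1 library was left out. At low beads the count of 2 became 0 when only the groups compared were fitted, 1 with the nuclear RNA score as covariate, 3 with the replicate block (Tnfrsf25 added, adjusted p = 0.0492), 0 without those 6 libraries, and 0 to 2 when 1 library was left out. The count for high minus no beads, 1, became 2 when only the groups compared were fitted, 3 with the replicate block (Tnfrsf9 and Tnfrsf1b added, adjusted p = 0.0304 and 0.00892), 0 without those 6 libraries, and was 1 in each leave-one-out fit. The cause was not tested. Replicate numbers are accession order only, so the replicate block is a hint from the data, not the design. Other counts stayed within 1.5 times: the 3 at high beads ranged from 2 to 4, and the bead counts under control antibody from 4 to 8. The nuclear RNA score, which moves with the beads, also ended the calls of Tnfrsf9 at high beads under anti-Ox40 (0.85 and 0.88, adjusted p = 0.0772 and 0.155). Rescaling every library to the same sum moved the median of all genes from no to high beads to -0.24 and -0.23. Depth limits Ltbr and, without beads, Tnfrsf8, and 3 libraries per group limit all tests.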
